A study of Mus musculus with 8 samples.

Results

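The elastic fiber and microfibril genes described here are Eln, Fbn1, Fbn2, Mfap4, Mfap5, Fbln1, Fbln2, Fbln5, Efemp1 and Emilin1, 10 of the 23952 gene symbols in the deposited expression table. They were taken by symbol, and where a symbol had several transcripts, which among these genes applied to Fbln2, the transcript of highest mean level was used. Elastic fibers give tissues recoil. They consist of a core of crosslinked elastin laid down on a scaffold of fibrillin microfibrils, and fibulins and other glycoproteins join the core to the scaffold. Microfibrils also hold latent TGF-beta in the matrix through its binding proteins, and in most connective tissues fibroblasts and smooth muscle cells are the main makers of these proteins.

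RNA was sequenced from Lewis lung carcinomas, a mouse lung tumor line, grown under the skin of mice that carry a GFP reporter of the collagen gene Col1a1. The injected carcinoma cells carried a dTomato vector and had been sorted for that color and kept under G418, and mice received them in both flanks. Fibroblast libraries were made from GFP+ cells, so this group is defined by a collagen reporter. TAM libraries, labelled as M2 tumor-associated macrophages, came from F4/80+ cells that had taken up Alexa-labelled collagen and lacked dTomato and GFP, LLC libraries came from dTomato+ cells, and for Total tumor the labels name no gate. The sorted cells were collected 24 h after the labelled collagen was injected into the tumors. Each group had 2 libraries, called by group and replicate number (Fibroblast 1, Fibroblast 2). Whether these came from separate animals, and the age, sex and strain of the mice, is not stated in the labels, so the p-values given below take in the spread from library to library and nothing more, and that spread may be technical.

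Levels are RPKM, read numbers scaled by transcript length and library total. Whether the oligo-dT priming of the RNA left long and short transcripts comparable was not tested, so comparisons between genes are of RPKM only. Depth was estimated from the steps between the lowest values as 4.29 to 10.4 M reads a library, with replicate 2 the shallower in each group. The 8 fibroblast markers summed to 25199 and 23737 RPKM in Fibroblast, 140.1 and 682 RPKM in TAM, 4012 and 5458 RPKM in LLC and 2911 and 2388 RPKM in Total tumor. The 9 macrophage markers in the table summed to 142 and 161 RPKM in Fibroblast, 13552 and 9973 RPKM in TAM, 54.5 and 316 RPKM in LLC and 832 and 2749 RPKM in Total tumor. Of 5 epithelial markers, Krt8 and Krt18 were present in LLC (57.5 and 43.6 RPKM and 122 and 82.8 RPKM), while Krt19, Epcam and Cdh1 averaged under 1 RPKM there. The same 5 markers summed to 24.8 and 179 RPKM in Fibroblast, so the Fibroblast libraries differed in them, and their part in the results below was not tested. In Total tumor 2 the rank correlation across genes between a gene's deviation from its mean and its transcript length was -0.44, against -0.20 to 0.25 in the other 7 libraries.

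Genes with at least 1 RPKM in at least 2 libraries were tested, which left 13311 genes and all 10 elastic fiber genes. Fbn2 passed this filter through Fibroblast alone, so its difference from the other groups follows in part from the filter. A difference is given as log2 of RPKM + 1, from limma with 1 fit over the 8 libraries, and p-values are Benjamini-Hochberg adjusted over all genes tested, with 0.05 as the threshold. Adding 1 understates the change of low genes, while folds are ratios of mean RPKM. The median difference over all genes tested was -0.13 for Fibroblast minus TAM, -0.46 for Fibroblast minus LLC and -0.38 for TAM minus LLC. Against Total tumor it was -0.51 for Fibroblast, -0.36 for TAM and -0.03 for LLC. With upper-quartile rescaling the 6 medians lay between -0.21 and 0.10.

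The upstream sequences of Efemp1 and Fbln1 are shown because these genes had the largest log2 differences between Fibroblast and TAM and differ in the motif marked. Both come from RefSeq on GRCm38.p6, a later build than the mm9 of the deposited values, and lie on the plus strand before the annotated start, for Fbln1 the first listed. Efemp1 is read at chr11:28852955-28853203 and Fbln1 at chr15:85205699-85205948. Capitals mark a GC box.
Efemp1: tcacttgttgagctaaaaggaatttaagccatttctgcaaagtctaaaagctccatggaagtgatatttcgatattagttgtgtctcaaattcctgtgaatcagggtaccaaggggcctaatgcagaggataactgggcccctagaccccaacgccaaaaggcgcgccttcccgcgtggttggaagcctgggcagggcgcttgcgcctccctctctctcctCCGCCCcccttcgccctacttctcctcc
Fbln1: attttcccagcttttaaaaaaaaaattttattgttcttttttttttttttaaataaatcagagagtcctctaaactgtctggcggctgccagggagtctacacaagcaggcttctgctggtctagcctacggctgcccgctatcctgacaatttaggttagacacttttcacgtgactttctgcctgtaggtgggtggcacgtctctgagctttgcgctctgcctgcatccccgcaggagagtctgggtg
The stretch of Efemp1 held 53.4% G and C and that of Fbln1 46.4%. Motifs searched on both strands were the GC box GGGCGG, the TATA box TATAAA, the CCAAT box CCAAT and the AP-1 site TGACTCA. For each elastic fiber gene the first listed promoter was read, while the shares over all promoters can count a gene more than once. The windows of Fbn1, Fbln2 and Emilin1 overlap annotated exons. In the 250 bases before the start, a GC box lay upstream of 4 of the 6 elastic fiber genes with an entry (Fbn1, Fbln2, Fbln5 and Efemp1). It lay upstream of 32.7% of all 32851 promoters. A CCAAT box lay upstream of Fbln5 and of 33.8% of all promoters. The letters of the TATA box and the AP-1 site were in 0 of the 6 windows, and in 12.4% and 4.46% of all promoters.

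For 8 of the 10 genes both Fibroblast libraries lay above all others, and the share of all genes tested with this order was not computed. The 8 include Fbn2, which passed the filter through Fibroblast alone. Summed over the 10, the level was 2578 and 2382 RPKM in Fibroblast, 36.3 and 79.3 RPKM in TAM, 239.5 and 296 RPKM in LLC and 223 and 181 RPKM in Total tumor. The makeup of the sum also differed between groups. Efemp1 held 32.2% and 38.6% of it in the Fibroblast libraries, where Emilin1 held 2.09% and 2.05%. Emilin1 held 65.1% and 28.6% in the TAM libraries and 33.5% and 26.1% in those of LLC, where Fbn1 held 25.4% and 33.3%.

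**Figure D1:**
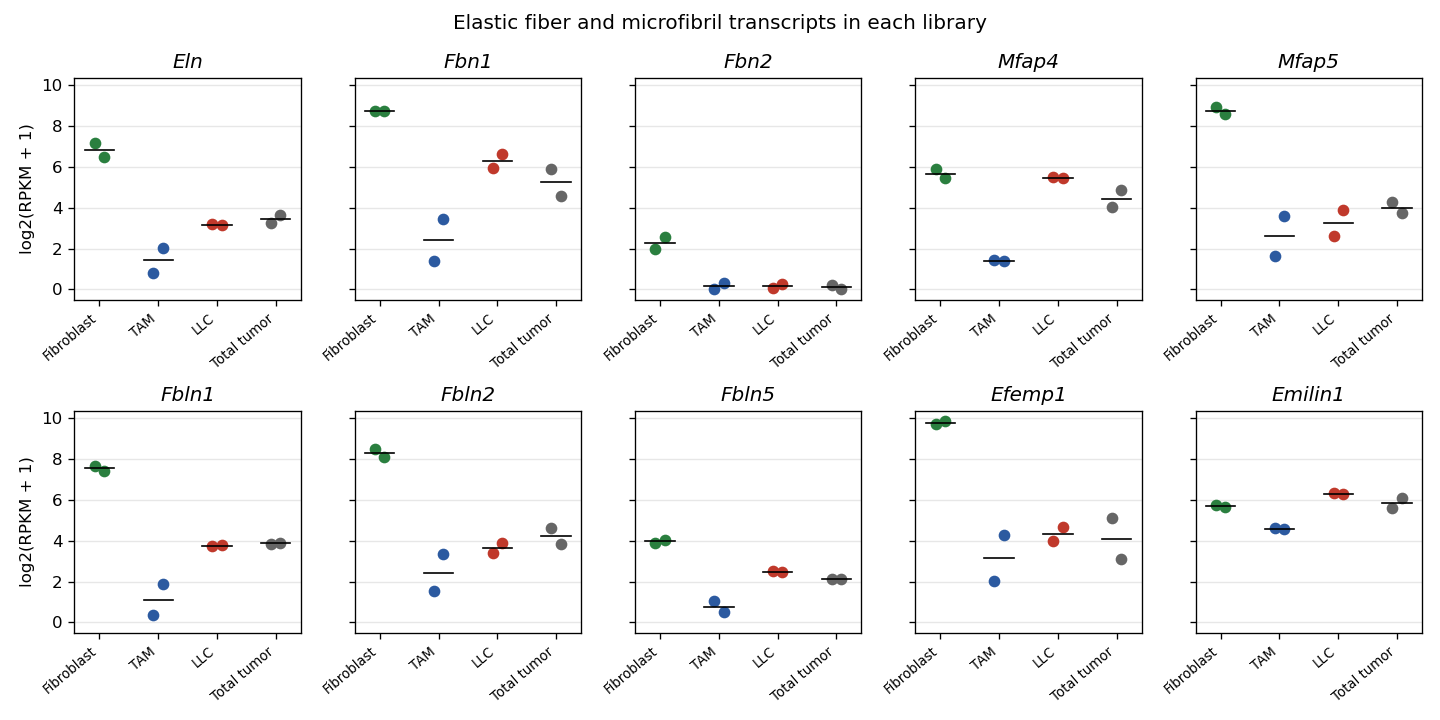
Level of each elastic fiber gene as log2(RPKM + 1) on the vertical axis in the 2 libraries of each group (points), with the mean of the log values as a line. The Fibroblast points lie above all others for 8 of the 10 genes, and the share of all genes tested with this order was not computed. They overlap those of LLC for Mfap4 and lie below those of LLC for Emilin1. The 8 include Fbn2, which passed the filter through Fibroblast alone.

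Eln encodes elastin, the core of the fiber. It stood at 145 and 87.6 RPKM in Fibroblast, 0.779 and 3.04 RPKM in TAM, 8.13 and 7.89 RPKM in LLC and 8.48 and 11.5 RPKM in Total tumor. Both Fibroblast libraries were far above the rest, TAM was lowest, and the Fibroblast libraries differed more from each other than those of LLC did. The 10 smooth muscle and pericyte markers summed to 410.0 and 241 RPKM in Fibroblast, 11.5 and 12.3 RPKM in TAM, 15.7 and 19.9 RPKM in LLC and 41.1 and 44.7 RPKM in Total tumor, with Cnn1 at 0 in LLC. They were higher in the Fibroblast library with more Eln, and their part in the Eln level was not tested.

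Fibrillins form the microfibril itself. Fbn1, the main fibrillin of adult tissue, stood at 427 and 434 RPKM in Fibroblast, 1.64 and 9.97 RPKM in TAM, 60.8 and 98.5 RPKM in LLC and 59.2 and 23.0 RPKM in Total tumor. No library of another group came near those of Fibroblast, and TAM was lowest. Both LLC libraries lay above those of Total tumor, with only LLC 1 (60.8 RPKM) and Total tumor 1 (59.2 RPKM) close to each other. In LLC, Fbn1 averaged 79.7 ± 26.7 RPKM and Emilin1 78.7 ± 2.08 RPKM (SD, n = 2 each), the highest means of the 10 genes. Emilin1 was above Fbn1 in LLC 1 (80.2 and 60.8 RPKM) and below it in LLC 2 (77.2 and 98.5 RPKM). Fbn2, the fibrillin best known from developing tissue, stood at 2.94 and 4.99 RPKM in Fibroblast, 0.0110 and 0.235 RPKM in TAM, 0.0550 and 0.201 RPKM in LLC and 0.153 and 0 RPKM in Total tumor. By the estimated depths this was about 337 and 261 reads in Fibroblast and 0 to 16.8 reads in the other 6 libraries, so the order of TAM, LLC and Total tumor was not detectable at this depth. Within Fibroblast, the level of Fbn1 was 145 and 86.9 times that of Fbn2.

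The microfibril-associated proteins Mfap5 and Mfap4 had different patterns. Mfap5 encodes MAGP-2, a small glycoprotein that binds fibrillin, and stood at 488 and 385 RPKM in Fibroblast, 2.17 and 11.0 RPKM in TAM, 5.15 and 13.6 RPKM in LLC and 18.7 and 12.2 RPKM in Total tumor. Mfap4 encodes a protein with a fibrinogen-like domain that binds elastin and collagen, and stood at 58.0 and 43.1 RPKM in Fibroblast, 1.70 and 1.63 RPKM in TAM, 43.9 and 42.5 RPKM in LLC and 15.2 and 28.1 RPKM in Total tumor. Fibroblast and LLC lay far apart for Mfap5 and overlapped for Mfap4, while TAM was the lowest group for Mfap4. The ratio of Mfap5 to Mfap4 was 8.42 and 8.94 in Fibroblast and 0.117 and 0.321 in LLC.

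The fibulins link elastin, fibrillin and basement membranes, and the 4 in this gene set were highest in Fibroblast. Efemp1, which encodes fibulin-3, was the most abundant of the 10 genes there, at 829.6 and 920.1 RPKM in Fibroblast, 3.05 and 18.5 RPKM in TAM, 14.9 and 24.6 RPKM in LLC and 33.7 and 7.52 RPKM in Total tumor. Outside Fibroblast its libraries overlapped between all groups. Fbln1, found in elastic fibers and basement membranes, stood at 204 and 171 RPKM in Fibroblast, 0.279 and 2.67 RPKM in TAM, 12.3 and 12.7 RPKM in LLC and 13.6 and 14.0 RPKM in Total tumor, with TAM lowest and LLC just below Total tumor. Fbln2, a fibulin that binds fibrillin and elastin, stood at 356 and 272 RPKM in Fibroblast, 1.92 and 9.14 RPKM in TAM, 9.41 and 13.7 RPKM in LLC and 23.9 and 13.6 RPKM in Total tumor. Its other transcript, which could share most reads, was at 352 and 269.5 RPKM in Fibroblast. Fbln5, which mice need for elastic fiber assembly, was the lowest of these 4 in Fibroblast, at 14.1 and 15.3 RPKM in Fibroblast, 1.09 and 0.417 RPKM in TAM, 4.65 and 4.55 RPKM in LLC and 3.43 and 3.31 RPKM in Total tumor. The groups did not overlap for Fbln5, with TAM lowest.

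Emilin1, a glycoprotein at the interface of elastin and microfibrils, had another order. It stood at 53.7 and 48.7 RPKM in Fibroblast, 23.6 and 22.7 RPKM in TAM, 80.2 and 77.2 RPKM in LLC and 47.0 and 68.0 RPKM in Total tumor. The LLC libraries were above all others, TAM was lowest, and Fibroblast lay within the spread of Total tumor.

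In Fibroblast minus TAM, all 10 genes were higher in Fibroblast, among them Fbn2, which passed the filter through Fibroblast alone. Of all genes tested, 17.3% were called higher, 17.4% lower and 34.7% in either direction. Since GFP was required of Fibroblast and excluded from TAM, the gates set these groups apart by a matrix gene. Fbln1 was 127-fold higher (log2 6.44, SE 0.44, adjusted p = 0.000106), on about 8.7 and 43.6 estimated reads in TAM 1 and TAM 2. Its log2 difference ran from 4.91 to 7.51 over 19 alternatives. Efemp1 was 81.1-fold higher (log2 6.62, SE 0.82, adjusted p = 0.000540). The scaffold and core genes followed, with Fbn1 74.1-fold (log2 6.33, adjusted p = 0.000286), Mfap5 66.3-fold (log2 6.14, adjusted p = 0.000252) and Eln 61.0-fold higher (log2 5.41, adjusted p = 0.000120). Fbln2 was 56.8-fold higher (log2 5.84, adjusted p = 0.000190), Mfap4 30.3-fold (log2 4.26, adjusted p = 0.000116) and Fbln5 19.5-fold (log2 3.19, adjusted p = 0.000159, and log2 1.78 with a pseudocount of 5). Fbn2 had a difference of 2.12 (adjusted p = 0.000780), which was 4.35 with a pseudocount of 0.1 and 0.80 with 5. Emilin1 differed least, at 2.21-fold (log2 1.11, adjusted p = 0.00864). It missed the threshold when Fibroblast 1 (adjusted p = 0.0687) or TAM 2 (0.0535) was left out, and its adjusted p spanned 0.000691 to 0.0687 over 19 alternatives. The folds moved with the TAM library left out: without TAM 1 or TAM 2 they ran over 70.2 to 672 for Fbln1, 47.3 to 287 for Efemp1, 43.1 to 263 for Fbn1 and 39.7 to 201 for Mfap5. They likewise ran over 38.3 to 149 for Eln, 34.3 to 164 for Fbln2 and 13.5 to 35.2 for Fbln5, the calls of these 7 genes holding under all 19 alternatives. The median of the 10 differences, with Fbn2 counted, was 5.63.

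In Fibroblast minus LLC, 8 of the 10 genes were higher in Fibroblast, among them Fbn2, which passed the filter through Fibroblast alone. Of all genes tested, 13.0% were called higher, 25.7% lower and 38.6% in either direction. Mfap5 was 46.5-fold higher (log2 5.52, SE 0.64, adjusted p = 0.000794), Efemp1 44.2-fold (log2 5.44, adjusted p = 0.00223) and Fbln2 27.2-fold (log2 4.66, adjusted p = 0.000907). Fbln1 was 14.9-fold (log2 3.79, adjusted p = 0.000808) and Eln 14.5-fold higher (log2 3.66, adjusted p = 0.000792), and Fbn2 had a difference of 2.11 (adjusted p = 0.00139), which was 4.19 with a pseudocount of 0.1 and 0.80 with 5. The fold of Mfap5 ran over 32.0 to 84.7 without LLC 1 or LLC 2. Fbn1, in which LLC was nearer, was 5.40-fold higher (log2 2.46, SE 0.68, adjusted p = 0.0248). Its call rested on all 4 libraries: the adjusted p was 0.118 without Fibroblast 1, 0.124 without Fibroblast 2, 0.144 without LLC 1 and 0.0627 without LLC 2, and spanned 0.00268 to 0.144 over 19 alternatives. Fbln5 was 3.19-fold higher (log2 1.49, adjusted p = 0.00591), with 0.0535 without Fibroblast 2 and a span of 0.00140 to 0.0535. The median of the 10 differences, with Fbn2 counted, was 3.06.

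Mfap4 and Emilin1 did not pass in Fibroblast minus LLC. The difference of Mfap4 was 0.21 with a 95% interval of -0.52 to 0.94 (adjusted p = 0.634). With a correction for transcript length, chosen after the data were seen, it passed at 0.71 (adjusted p = 0.0385, span 0.0385 to 1.00 over 19 alternatives). The median difference over all genes tested was -0.46 in this comparison, and -0.05 with upper-quartile rescaling. Emilin1 was lower in both Fibroblast libraries, with a difference of -0.61 and an interval of -1.17 to -0.05 (adjusted p = 0.0814). It passed when Total tumor 1 (0.0144) or Total tumor 2 (0.0141) was left out, and in a fit of the compared groups alone (0.0170). Over the 19 alternatives its difference stayed below 0, at -0.68 to -0.11, and its adjusted p spanned 0.0141 to 0.753.

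**Figure D2:**
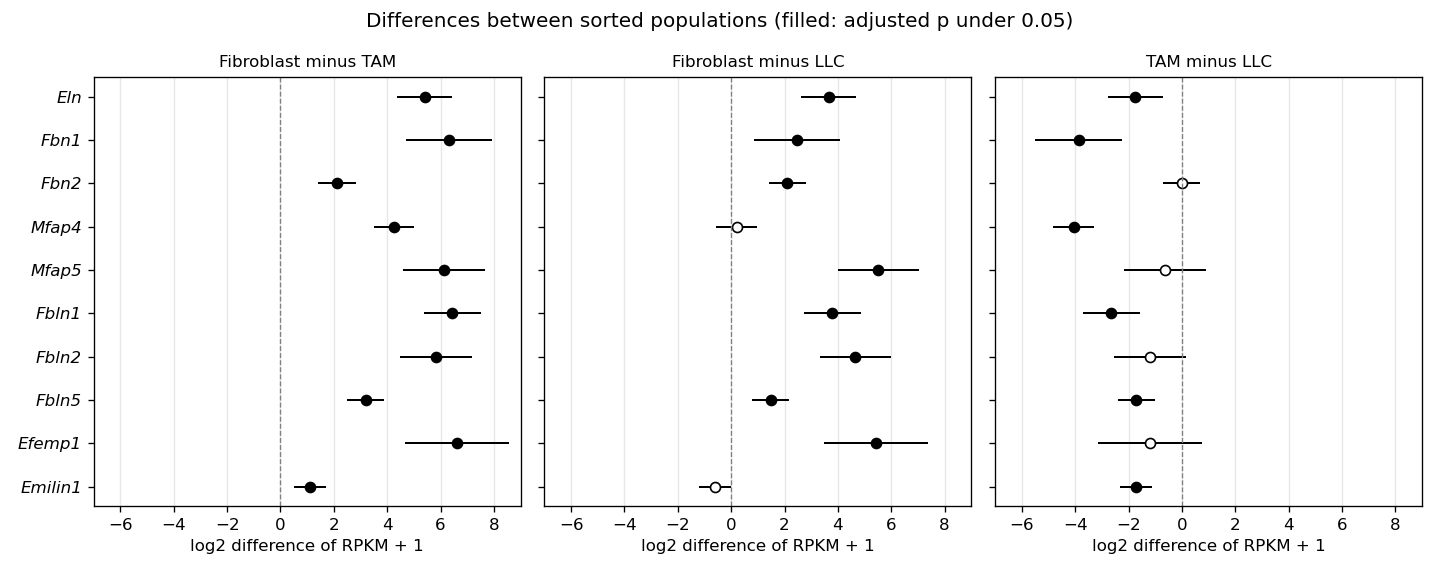
Log2 difference of RPKM + 1 on the horizontal axis for each gene in the 3 comparisons of sorted populations, with 95% intervals from limma, and filled points where the adjusted p is under 0.05. Filled points number 10 for Fibroblast minus TAM, 8 for Fibroblast minus LLC and 6 for TAM minus LLC.

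In TAM minus LLC, 6 of the 10 genes were lower in TAM and 4 did not pass, where 27.5% of all genes tested were called lower, 15.4% higher and 42.9% in either direction. Mfap4 was 25.9-fold lower (log2 -4.05, SE 0.31, adjusted p = 0.000137) and Fbn1 13.7-fold lower (log2 -3.87, SE 0.68, adjusted p = 0.00308). Without TAM 1 or TAM 2 the fold of Fbn1 ran over 7.99 to 48.7, that of Fbln1 over 4.70 to 44.9, that of Fbln5 over 4.22 to 11.0 and that of Eln over 2.64 to 10.3, all lower in TAM. Fbln1 (log2 -2.64, adjusted p = 0.00244), Emilin1 (log2 -1.72, adjusted p = 0.00107) and Fbln5 (log2 -1.70, adjusted p = 0.00236) were lower too. Eln was lower (log2 -1.75, adjusted p = 0.0129), but not past the threshold without LLC 1 (adjusted p = 0.0695), LLC 2 (0.0613) or TAM 1 (0.0728, log2 -1.16), with a span of 0.00716 to 0.0728 over 19 alternatives. With a pseudocount of 5 the differences of these low genes shrank, to -0.93 for Eln, -1.46 for Fbln1 and -0.74 for Fbln5, which was -2.58 with 0.1 and -1.09 after the length correction. Fbln2 (log2 -1.18, adjusted p = 0.128), Efemp1 (log2 -1.18, adjusted p = 0.284), Mfap5 (log2 -0.62, adjusted p = 0.472) and Fbn2 (log2 -0.01, adjusted p = 0.985) did not pass, though Fbln2 did without TAM 2 (log2 -2.08, adjusted p = 0.0146, span 0.0146 to 0.668). The median of the 10 differences was -1.71.

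The TAM libraries differed from each other in most of these genes. Relative to the mean Fibroblast level, TAM 1 and TAM 2 held 0.380% and 2.32% for Fbn1, 0.349% and 2.12% for Efemp1 and 0.497% and 2.52% for Mfap5. The shares were 0.611% and 2.91% for Fbln2, 0.669% and 2.61% for Eln and 0.149% and 1.42% for Fbln1, the last on about 8.7 and 43.6 reads. Fbn2 held 0.277% and 5.93%, on about 1.0 and 11.6 reads, so all 7 were higher in TAM 2. The 8 fibroblast markers were also higher there, with a median share of 0.613% (0.171 to 1.32%) in TAM 1 and 2.57% (2.19 to 3.46%) in TAM 2, and none of them at 0. Their part in the TAM levels was not tested. Emilin1 held 46.1% and 44.3%, far above the highest marker share in either library. Mfap4 held 3.37% and 3.22%, and Fbln5 7.42% and 2.84%, higher in TAM 1.

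In LLC 1 and LLC 2 the fibroblast markers had a median share of 22.9% and 31.9% of the Fibroblast level, with a range of 0.897 to 67.6% and 1.83 to 65.8%. Col1a1, the gene of the reporter, was at 5315 and 4200.4 RPKM in Fibroblast and 76.2 and 192 RPKM in LLC. Whether these markers come from the carcinoma cells or from other cells in the gate was not tested. Of the 8 markers, 7 were higher in LLC 2. Mfap5 (1.18% and 3.12%), Efemp1 (1.71% and 2.81%) and Fbn1 (14.1% and 22.9%) were also higher in LLC 2, as was Fbln2, which reached 4.36% there. So was Fbn2 (1.39% and 5.07%), on about 6.3 and 9.5 reads in LLC 1 and LLC 2. The LLC libraries were close to each other for Emilin1 (156% and 151%), Mfap4 (86.9% and 84.1%), Fbln5 (31.7% and 31.0%), Eln (6.99% and 6.78%) and Fbln1 (6.58% and 6.80%).

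**Figure D3:**
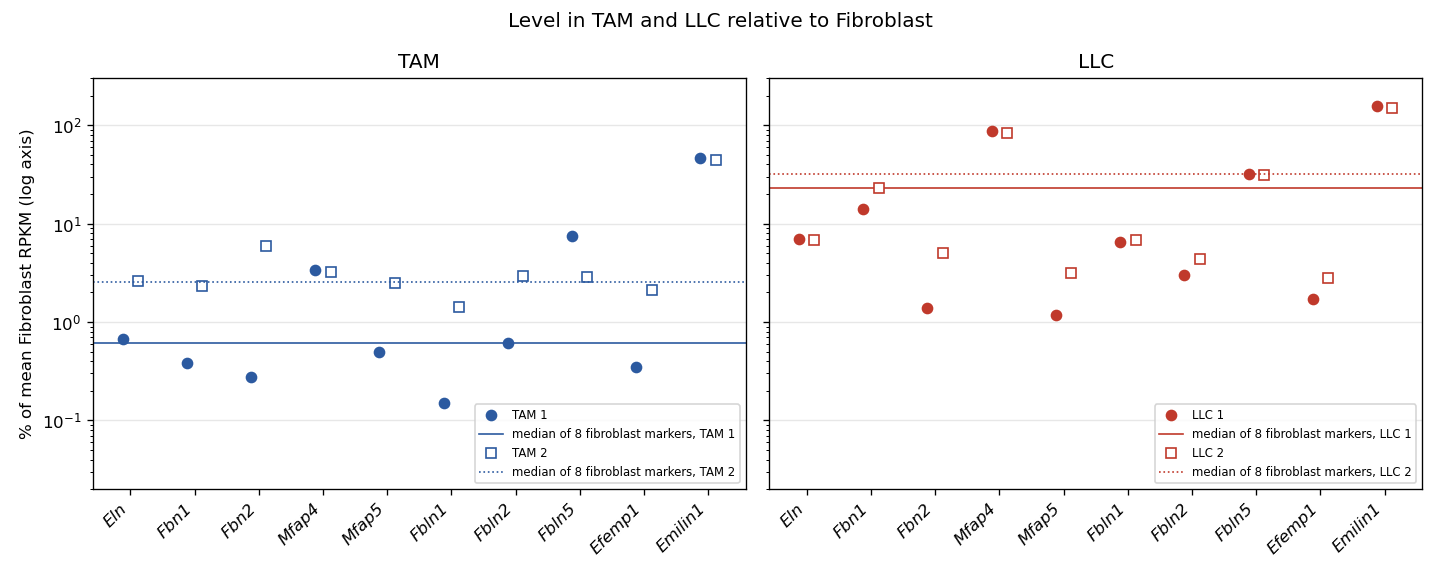
Level of each gene as a percentage of its mean Fibroblast RPKM (log axis) in the TAM libraries (left) and the LLC libraries (right), with lines at the median of 8 fibroblast markers in each library. In TAM, Emilin1 lies at 46.1% and 44.3%, above both marker lines, and in LLC Emilin1 lies above 100%.

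In Fibroblast minus Total tumor, 9 of the 10 genes were higher in Fibroblast, among them Fbn2, which passed the filter through Fibroblast alone. Of all genes tested, 12.1% were called higher, 30.0% lower and 42.1% in either direction. In bulk tumor, fewer cells of a type and less RNA per cell cannot be told apart. Efemp1 was 42.4-fold higher (log2 5.67, SE 0.82, adjusted p = 0.00202) and Mfap5 28.2-fold (log2 4.75, adjusted p = 0.00156). Without Total tumor 1 or Total tumor 2 the fold of Efemp1 ran over 25.9 to 116 and that of Fbn1 over 7.27 to 18.7. Fbln2 was 16.7-fold, Fbln1 13.6-fold and Eln 11.6-fold higher (adjusted p = 0.00174, 0.00109 and 0.00119). Fbn1 was 10.5-fold higher (log2 3.50, adjusted p = 0.00623), with 0.0525 without Fibroblast 2 and a span of 0.00109 to 0.0525 over 19 alternatives. Fbln5 (log2 1.84, adjusted p = 0.00249) and Fbn2 (log2 2.18, adjusted p = 0.00138, and log2 4.63 and 0.81 with pseudocounts of 0.1 and 5) passed as well. Mfap4 was 2.33-fold higher (log2 1.23, adjusted p = 0.0171) and missed the threshold without Fibroblast 1 (0.124), without Fibroblast 2 (0.0587) and in a fit of the compared groups alone (0.0760). Its difference was 0.81 without Total tumor 1 and 1.94 after the length correction, with an adjusted p that spanned 0.000564 to 0.124. Emilin1 did not pass (log2 -0.14, interval -0.71 to 0.42, adjusted p = 0.661), and its sign turned with upper-quartile rescaling (0.46). The median of the 10 differences, with Fbn2 counted, was 3.44.

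TAM was lower than Total tumor in 7 of the 10 genes, where 23.9% of all genes tested were called lower, 11.3% higher and 35.2% in either direction. Mfap4 was 13.0-fold lower (log2 -3.03, adjusted p = 0.000844, and log2 -1.96 with a pseudocount of 5) and Fbln1 9.34-fold lower (log2 -2.77, adjusted p = 0.00355). Emilin1 was lower (log2 -1.25, adjusted p = 0.00704), and at 0.0591 in a fit of the compared groups alone. Eln was lower (log2 -2.02, adjusted p = 0.00966), but missed the threshold without TAM 1 (0.0519) and in a fit of the compared groups alone (0.0703), with a span of 0.00778 to 0.0703. Fbln5 was lower (log2 -1.34, adjusted p = 0.00983), but missed it without TAM 2 (0.0643), in a fit of the compared groups alone (0.0643), after quantile normalization (0.0779, log2 -0.82) and after the length correction (0.0503), with a span of 0.00762 to 0.0779. Without TAM 1 or TAM 2 the fold of Fbln1 ran over 5.16 to 49.4, that of Eln over 3.29 to 12.8 and that of Fbln5 over 3.09 to 8.07, all lower in TAM. Fbn1 was lower (log2 -2.82, adjusted p = 0.0161), with 0.0577 without Total tumor 1, 0.0794 without TAM 1 (log2 -1.79) and 0.0917 in a fit of the compared groups alone (span 0.00671 to 0.0917). Fbln2 was lower (log2 -1.81, adjusted p = 0.0402), but missed the threshold under 11 of 19 alternatives. For Fbln2 the adjusted p was 0.0601 with the replicate block and 0.185 without TAM 1, where its difference was -0.91 (span 0.0129 to 0.185). Leaving out any 1 of Total tumor 1, LLC 1, LLC 2, Fibroblast 1 or Fibroblast 2 gave Fbln2 0.0641 to 0.130. Mfap5 (log2 -1.39, adjusted p = 0.132), Efemp1 (log2 -0.95, adjusted p = 0.407) and Fbn2 (log2 0.06, adjusted p = 0.901) did not pass, though Mfap5 did without TAM 2 (log2 -2.35, adjusted p = 0.0338, span 0.0338 to 0.625). With a pseudocount of 5 the difference was -1.13 for Eln, -1.56 for Fbln1 and -0.54 for Fbln5, and that of Fbln5 was -2.14 with 0.1. The median of the 10 differences was -1.60.

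In LLC minus Total tumor, limma called 0 of the 10 genes. Of all genes tested, 0.0526% were called higher, 2.30% lower and 2.35% in either direction, all by adjusted p. At an unadjusted p under 0.05, for which the share of all genes was not computed, 1 of the 10 passed. That gene was Mfap4, higher in both LLC libraries (log2 1.02, interval 0.29 to 1.75, adjusted p = 0.209). After the length correction it passed (log2 1.23, adjusted p = 0.0357, span 0.0357 to 0.656). The intervals of other genes were wide, at -1.68 to 2.15 for Efemp1 and -0.54 to 2.63 for Fbn1. The median of the 10 differences was 0.15.

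**Figure D4:**
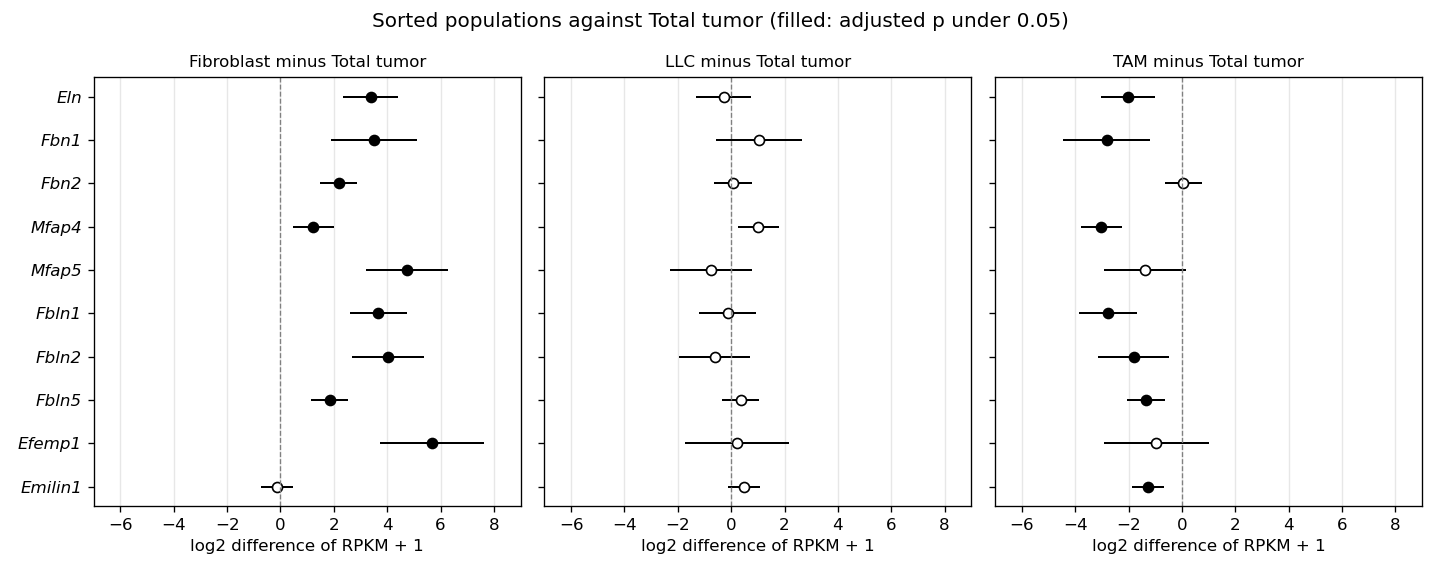
Log2 difference of RPKM + 1 on the horizontal axis for each gene between a sorted population and Total tumor, with 95% intervals from limma, and filled points where the adjusted p is under 0.05. Filled points number 9 for Fibroblast, 0 for LLC and 7 for TAM.

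Genes that work with elastic fibers were read from 4 lists, with the background shares given above. Of 19 assembly and crosslinking genes, 16 were tested. Fbln7 passed the filter through Fibroblast alone and Adamts6 through LLC alone, so their differences follow in part from the filter, and both are named for that reason, after their values were seen. Counts and medians without them are given beside the full ones. In Fibroblast minus TAM 12 were higher, 0 lower and 4 did not pass (median 2.51; without Fbln7 and Adamts6 11 of 14 higher, median 3.17), led by Loxl1 (log2 6.63, adjusted p = 0.000218) and Loxl2 (log2 5.95, adjusted p = 0.000545), lysyl oxidases of the family that crosslinks elastin and collagen. In Fibroblast minus LLC 10 were higher, 0 lower and 6 did not pass (median 2.01; without them 9 of 14 higher, median 2.08), led by Loxl1 (log2 5.65, adjusted p = 0.000825) and Mfap2 (log2 5.21, adjusted p = 0.000370), which encodes MAGP-1. Loxl1 stood at 466 and 432 RPKM in Fibroblast, 1.05 and 9.04 RPKM in TAM, 5.83 and 10.7 RPKM in LLC and 13.3 and 8.70 RPKM in Total tumor. Mfap2 stood at 161 and 129.7 RPKM in Fibroblast, 0.872 and 3.34 RPKM in TAM, 1.89 and 4.35 RPKM in LLC and 4.01 and 6.72 RPKM in Total tumor. For both, Fibroblast lay far above all other libraries, much as Mfap5 did.

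In TAM minus LLC, 3 assembly genes were higher, 6 lower and 7 did not pass (median -0.80), and 5 of 14 were lower without Fbln7 and Adamts6 (median -0.80). Emilin2, a relative of Emilin1 (log2 2.71, adjusted p = 0.000179), and the transglutaminase Tgm2 (log2 2.69, adjusted p = 0.000457) led the higher ones. Fkbp10, a collagen and elastin chaperone (log2 -4.19, adjusted p = 0.000125), and Efemp2, which encodes fibulin-4 (log2 -2.44, adjusted p = 0.000496), led the lower ones. Emilin2 stood at 243 and 206 RPKM in Fibroblast, 135 and 162 RPKM in TAM, 21.4 and 22.1 RPKM in LLC and 39.1 and 48.3 RPKM in Total tumor, so TAM was above LLC for Emilin2 and below it for Emilin1.

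Of the latent TGF-beta binding proteins and microfibril-bound ligands, 10 of 11 were tested. The ligands Tgfb2, Bmp4 and Bmp7 passed the filter through Fibroblast alone, so their higher level there follows in part from the filter. In Fibroblast minus TAM 8 were higher and 1 lower (median 2.72), and without these 3 genes 5 of 7 were higher (median 1.59). The binding proteins Ltbp1 (log2 4.49, adjusted p = 0.000120) and Ltbp4 (log2 3.53, adjusted p = 0.000176) led the higher ones, and the ligand Tgfb1 was lower (log2 -3.21, adjusted p = 0.00144). In Fibroblast minus LLC 4 were higher and 2 lower (median -0.05), and without these 3 genes 1 of 7 was higher and 2 lower (median -0.71). Tgfb2 (log2 3.28, adjusted p = 0.000780) and Bmp4 (log2 2.68, adjusted p = 0.000485), both among the 3, had the largest differences, while Ltbp3 (log2 -1.19, adjusted p = 0.00341) and Tgfb3 (log2 -1.12, adjusted p = 0.00615) were lower. In TAM minus LLC 2 were higher, Tgfb1 (log2 2.50, adjusted p = 0.00487) and Bmp2 (log2 1.41, adjusted p = 0.00767), and 5 lower (median -1.15, or -2.44 without the 3), led by Ltbp4 (log2 -4.31, adjusted p = 0.000134) and Ltbp1 (log2 -4.24, adjusted p = 0.000152). Ltbp3 stood at 42.8 and 42.1 RPKM in Fibroblast, 5.87 and 6.44 RPKM in TAM, 95.2 and 102 RPKM in LLC and 54.8 and 58.4 RPKM in Total tumor. Tgfb1 stood at 24.7 and 12.1 RPKM in Fibroblast, 175 and 162 RPKM in TAM, 26.8 and 31.6 RPKM in LLC and 35.0 and 94.6 RPKM in Total tumor. LLC was highest for Ltbp3 and TAM for Tgfb1, which does not hold for all binding proteins or ligands. Ltbp1 had its highest mean in Fibroblast and Tgfb3 in LLC.

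**Figure D5:**
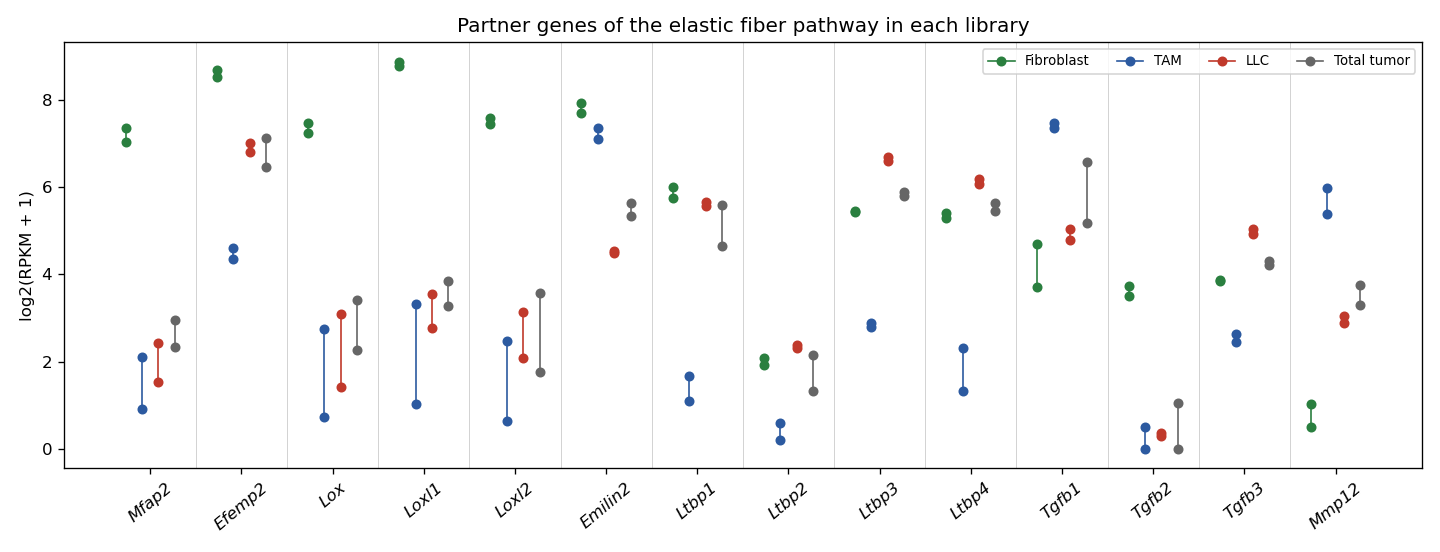
Level as log2(RPKM + 1) on the vertical axis of 14 partner genes, picked after their values were seen, in the 2 libraries of each group (joined points). Mfap2, Lox, Loxl1 and Loxl2 are highest in Fibroblast, Ltbp3, Ltbp4 and Tgfb3 in LLC, and Tgfb1 and Mmp12 in TAM.

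Of proteases able to cut elastin, 9 of 11 were tested. In Fibroblast minus TAM 3 were higher, led by Mmp2 (log2 6.78, adjusted p = 0.000546) and the cathepsin Ctsk (log2 3.72, adjusted p = 0.000188), and 4 lower, led by the cathepsin Ctss (log2 -6.19, adjusted p = 0.000623) and the macrophage metalloelastase Mmp12 (log2 -4.90, adjusted p = 0.000104), with a median of -1.03. In Fibroblast minus LLC 3 were higher, led by Ctsk (log2 5.31, adjusted p = 0.000272) and Mmp2 (log2 5.30, adjusted p = 0.00279), and 2 lower, Mmp12 (log2 -2.19, adjusted p = 0.00213) and Ctsl (log2 -1.45, adjusted p = 0.0281), with a median of 0.33. In TAM minus LLC 6 were higher, led by Ctss (log2 6.21, adjusted p = 0.000681) and Ctsb (log2 3.01, adjusted p = 0.000630), and 1 lower, the membrane protease Mmp14 (log2 -1.33, adjusted p = 0.0131), with a median of 1.59. Mmp12 stood at 0.427 and 1.05 RPKM in Fibroblast, 40.5 and 62.0 RPKM in TAM, 6.38 and 7.31 RPKM in LLC and 8.82 and 12.5 RPKM in Total tumor, with TAM above all other libraries.

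Of receptors of elastin and microfibrils, 10 of 12 were tested. In Fibroblast minus TAM the integrin subunit Itgb3 was higher (log2 3.38, adjusted p = 0.000586) and 4 were lower, led by the galectin Lgals3 (log2 -3.72, adjusted p = 0.000614) and Ctsa (log2 -3.07, adjusted p = 0.000679), a lysosomal enzyme also described in the elastin receptor complex, with a median of 0.04. In Fibroblast minus LLC 2 were higher, Itgb3 (log2 3.15, adjusted p = 0.00143) and Itga9 (log2 2.28, adjusted p = 0.00196), and 0 lower (median 0.14). In TAM minus LLC 4 were higher, led by Itga9 (log2 3.42, adjusted p = 0.000248) and Ctsa (log2 3.30, adjusted p = 0.000547), and 2 lower, the integrin subunits Itgav (log2 -1.55, adjusted p = 0.0290) and Itgb1 (log2 -1.09, adjusted p = 0.0193), with a median of 0.08.

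Pearson's r of log2 levels over the 8 libraries, which share groups and depth, describes how alike the elastic fiber genes were. It was 0.99 for Eln and Fbln1, 0.99 for Fbln2 and Mfap5 and 0.91 for Mfap4 and Emilin1. For Emilin1 it was 0.61 with Fbn1, 0.60 with Fbln5, 0.51 with Fbln1 and 0.44 with Eln. It was lower with Fbln2 (0.28), Efemp1 (0.19), Mfap5 (0.19) and Fbn2 (0.05). Among 8353 other genes, the pair most like each gene had r of 0.987 to 0.999. They were Uap1 and 6030419C18Rik for Eln, Fstl1 and Osmr for Fbn1, Serpina3c and Itga11 for Fbn2, Cpt1c and Zfp651 for Mfap4, and Adamts2 and Cpxm1 for Mfap5. For the fibulins they were Pdgfrb and Jam3 for Fbln1, Lama4 and Ldb2 for Fbln2, Arf4 and Snx33 for Fbln5 and Nox4 and Igfbp5 for Efemp1, and for Emilin1 they were Snap47 and Bag3.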

How the data were processed

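RNA of 8 libraries was measured, 2 in each of Fibroblast, TAM, LLC and Total tumor. Per the labels' protocols, 200 ng of RNA was primed with oligo-dT and read at 50 bp. The authors deposited RPKM for 31645 transcripts. The submitters' processing notes name STAR, HOMER and the build mm9, but no version, role, read total or strand setting. Transcripts with no symbol (3) were dropped. Depth is the value at which most low RPKM fall within 0.05 of whole reads (58.2 to 61.8%). Tests used limma 3.58.1 in R 4.3.3 on log2(RPKM + 1) with a variance trend (4 residual and 3.62 prior degrees of freedom), and were tested on simulated data. All 10 genes are named, listed partners by the largest 2 calls per direction and comparison, and alike genes by Pearson's r; the drawn partners that this rule does not name were picked after their values were seen. The genes and lists were chosen with earlier results of these data known. Alternatives covered the pseudocount, filter, scaling, transcript choice, variance trend, groups in the fit, replicate block and each library left out, plus, added after seeing the data, a transcript length correction, folds without each library and list counts without genes that passed the filter through 1 group alone. Promoters were matched by symbol in RefSeq GRCm38.p6, for 6 of the 10 genes.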

Additional observations from a re-analysis of the deposited data

How the results depend on the processing

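Of 1134 values of the 10 genes under 19 alternatives, 1071 kept their direction and side of the threshold, 35 lost a call, 7 gained one and 21 changed sign. Leaving out a library gave 23 of the lost calls, and 25 were in comparisons with Total tumor. A group left with 1 library is assumed to vary like the others. With the replicate block, 10 genes were called in Fibroblast minus TAM, 8 in Fibroblast minus LLC, 6 in TAM minus LLC, 9 in Fibroblast minus Total tumor, 6 in TAM minus Total tumor and 0 in LLC minus Total tumor. Same-numbered libraries share a number and a depth, replicate 2 being the shallower in each group, and the labels tie them by nothing else. The correlation of their deviations ran from -0.36 to 0.27 over the pairs of groups, above 0 for the 3 pairs of sorted groups and below 0 for those with Total tumor. With a library left out, the counts of genes called were 9 to 10, 6 to 9, 5 to 7, 7 to 9, 4 to 7 and 0 to 0 in the same order. TAM minus Total tumor gave 4 without TAM 1 and 2 in a fit of the compared groups alone, against 7. LLC minus Total tumor gave 1 after the length correction, against 0. The values that changed sign were not called. Fbn2 in TAM minus LLC was 0.0084 after upper-quartile rescaling, 0.17 after quantile normalization, 0.73 after the length correction and -0.15 to 0.13 with a library left out. Emilin1 in Fibroblast minus Total tumor was 0.46, 0.31 and 0.25 under those changes and -0.40 to 0.12 with a library left out. Fbn2 in LLC minus Total tumor was -0.27 after the length correction and -0.035 to 0.17 with a library left out. The other ranges with a library left out were -0.0042 to 0.42 for Mfap4 in Fibroblast minus LLC, -1.58 to 0.34 for Mfap5 in TAM minus LLC, -0.78 to 1.25 for Efemp1 in LLC minus Total tumor, -2.09 to 0.18 for Efemp1 in TAM minus Total tumor and -0.087 to 0.20 for Fbn2 there. The pseudocount moved low genes most: Fbn2 was 4.35 with 0.1 and 0.80 with 5 in Fibroblast minus TAM. Over all genes, calls also moved under the 19 alternatives, so a changed count among the 10 genes is no result about them alone. All-gene calls ran from 3120 to 6110 in Fibroblast minus TAM, against 4614, and from 2306 to 7296 in Fibroblast minus LLC, against 5142. They ran from 3418 to 7354 in TAM minus LLC, against 5707. Against Total tumor they ran from 2366 to 7193 for Fibroblast (5601), 1905 to 5990 for TAM (4690) and 0 to 2420 for LLC (313). Fbn2 was not tested with a filter at 5 RPKM. The causes were not tested.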
